A study of Mus musculus with 8 samples.

Results

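Liver RNA of wild-type C57BL/6 mice was examined for 40 genes that act in G2 phase and mitosis, the last steps of the cell division cycle. The 40 were found by their symbols among the 47719 genes of the deposited table, and all 40 were among the 12340 genes that reached 1 FPKM in at least 2 of the 8 libraries and were tested. FPKM is fragments per kilobase of transcript, scaled to the mapped fragments of the library, so levels can be compared between genes per length. The 8 libraries came from normal control mice aged 10 weeks (2 libraries), from mice 2 days after an extended hepatectomy, in which most of the liver is removed (4 libraries), and from mice 14 days after it (2 libraries). The study tested encapsulated human hepatocyte organoids against liver failure. Its design text lists mice treated with eLO, sampled at day 2 and at day 14, and controls treated with EMC, sampled at day 2, and spells out neither name. What each of the 4 day 2 libraries received is given by no label, so each is described apart and no treatment was compared. All hepatectomy mice are described as treated and the controls as normal mice, so surgery, treatment and time cannot be told apart in a comparison between groups. The title of day 2 replicate 1 gives day 1 where its age label gives day 2, and the title of day 2 replicate 3 carries the letters TVR, which are not explained. The column name of day 2 replicate 3, unlike the other column names, also holds the letters PHX and added numbers. No label says that replicates are separate animals, so a p-value measures the spread between these libraries, which may be technical.

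Cell division is driven by CDK1, a kinase that is active only with a cyclin partner, above all cyclin B. Before CDK1 is switched on, its partners and the proteins of the spindle, the kinetochore and the cleavage furrow are made from genes that are silent in resting cells and are transcribed together in G2. Anaphase begins once the spindle checkpoint releases CDC20, which lets the anaphase promoting complex, a ubiquitin ligase, destroy cyclin B and securin. Hepatocytes of an adult liver rarely divide. After partial removal of the liver most of those that remain re-enter the cycle, and some copy their DNA without completing division, which leaves polyploid cells.

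The 8 libraries were of similar depth. From the steps between low FPKM values, 1 fragment on 1 kb of transcript was worth 0.0512 to 0.0884 FPKM, with the shallowest library at day 14 replicate 1 and the deepest at day 2 replicate 4. The hepatocyte markers summed to between 38142 FPKM in day 2 replicate 4 and 65176 FPKM in day 2 replicate 3, with albumin the highest of them in 6 of 8 libraries. This is bulk tissue RNA, so a lower or higher level may mean fewer or more cells that express a gene or less or more RNA per cell, and these cannot be told apart. Of the 40 genes 12 share exon bases with another gene and 2, Kif20a and Ube2c, share at least 20%, where fragments of the 2 genes could be confused.

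Each of the 40 genes had its 2 highest levels in day 2 replicates 3 and 4, above the other 6 libraries. Summed over the 40 genes, the level was 59.5 and 60.0 FPKM in the 2 controls. It was 42.8, 48.6, 1301 and 1648 FPKM in day 2 replicates 1 to 4 and 78.5 and 82.9 FPKM in the 2 day 14 libraries. The median member stood at 0.623 and 0.731 FPKM in the controls, at 0.113, 0.0727, 19.3 and 21.6 FPKM in day 2 replicates 1 to 4 and at 0.329 and 0.422 FPKM at day 14. Every member exceeded 3 FPKM in day 2 replicates 3 and 4, while 11 and 14 of 40 reached 1 FPKM in the controls and 5 and 3 of 40 in day 2 replicates 1 and 2.

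**Figure D1:**
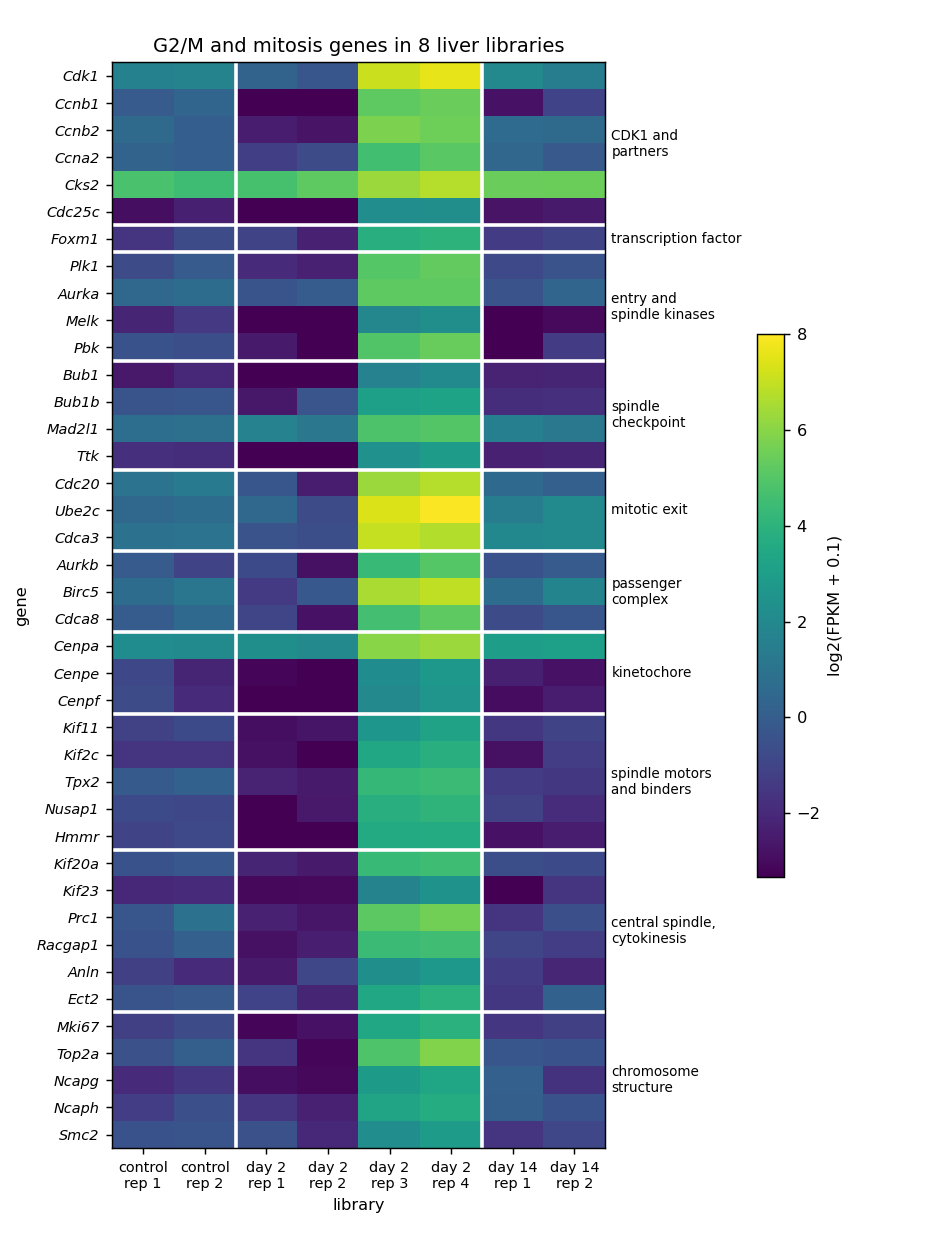
Level of each of the 40 genes (rows, grouped by role) in each of the 8 libraries (columns), as log2(FPKM + 0.1) on a colour scale. The columns of day 2 replicates 3 and 4 are bright in every row, and those of day 2 replicates 1 and 2 are mostly darker than the 2 control columns, with Cks2, Cenpa and Mad2l1 as rows that stay at control level or above there.

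The 4 day 2 libraries lay so far apart that a group mean describes none of them. Cdk1 averaged 81.7 ± 95.6 FPKM at day 2 (SD, n = 4) against 3.10 ± 0.148 FPKM in control (SD, n = 2). The libraries were therefore set one by one against the 2 controls. A gene was counted as higher where log2(FPKM + 1) lay at least 1 unit above the higher control, and as lower where it lay at least 1 unit below the lower control. In day 2 replicate 3 all 40 genes were higher by this measure, against 9.76% of all genes tested, and in day 2 replicate 4 all 40 were higher, against 12.2%. In day 2 replicates 1 and 2 none of the 40 was, against 11.4% and 15.6% of all genes. At day 14 none of the 40 was in replicate 1 or 2, against 11.6% and 7.87%. Of the 40, 29 passed the filter on low values only through day 2 replicates 3 and 4 and therefore had to be high there. The other 11 (Cdk1, Ccnb2, Ccna2, Cks2, Aurka, Mad2l1, Cdc20, Ube2c, Cdca3, Birc5 and Cenpa) passed without these 2 libraries.

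Relative to the higher control, the level in day 2 replicate 3 was 2.92-fold (Cks2) to 110.1-fold (Ube2c), with a median of 22.9-fold, and in replicate 4 it was 4.07-fold (Cks2) to 162-fold (Ube2c), with a median of 29.8-fold. These folds are on FPKM itself, with no pseudocount. On the log2(FPKM + 1) scale the median member lay 3.40 and 3.58 units above the control mean in replicates 3 and 4, where the median over all genes tested lay 0.04 and 0.01 units above it. In day 2 replicates 1 and 2 the median member lay at -0.47 and -0.45 units, and at day 14 at -0.16 and -0.11 units, against 0.03, 0.00, -0.04 and 0.03 for all genes tested.

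**Figure D2:**
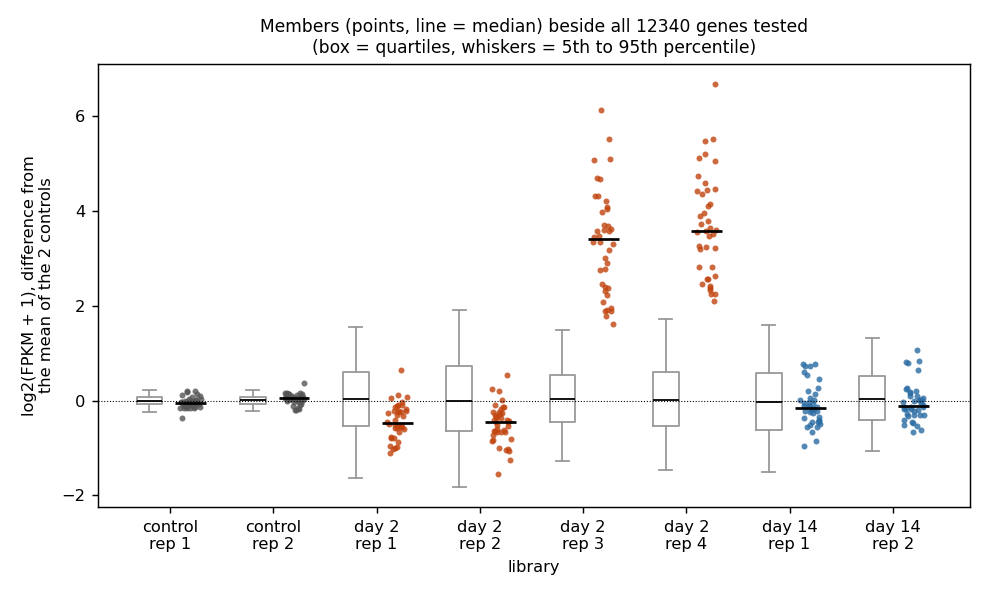
Difference of log2(FPKM + 1) from the mean of the 2 controls in each library, with the 40 genes as points (line at their median) beside boxes for all 12340 genes tested (quartiles, whiskers at the 5th and 95th percentiles). In day 2 replicates 3 and 4 all 40 points lie at least 1 unit above zero, with medians of 3.40 and 3.58, and in the other 4 hepatectomy libraries their medians lie between -0.47 and -0.11.

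Promoters of genes transcribed in G2 are known for 2 short elements, the cell cycle genes homology region (CHR), which the MuvB complex recognises when it is joined to the DREAM repressors or to B-MYB and FOXM1, and the CCAAT box, which NF-Y binds. RefSeq promoters (GRCm38.p6) were matched for 33 of the 40 genes, and the 250 bases before the gene start were searched on both strands for TTTGAA or TTCGAA (CHR) and for CCAAT. The complement of TTCGAA is the same sequence and was counted once, and a CCAAT box can overlap another on the opposite strand. CHR letters were present for 13 of 33 genes (39.4%), against 14.9% of the 9309 tested genes with a promoter and 19.6% of all 27025 genes of the promoter table. A CCAAT box was present for 26 of 33 (78.8%), against 40.8% and 37.5%. At least 2 CCAAT boxes were present for 17 of 33 (51.5%), against 15.4% and 11.5%, and both elements for 12 of 33 (36.4%), against 6.76% and 7.93%. A match is a match of letters and not a measured site.

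The sequences below are the 250 bases before the start of 4 members of high fold that hold both elements, of Cks2, the member of smallest fold, and of Mad2l1, a member with neither, each 5′ to 3′ toward the gene, with CHR and CCAAT letters of either strand in capitals. They lie at chr10:69352913-69353162 on the minus strand, chr4:118437344-118437593 on the minus strand, chr2:164769679-164769928 on the plus strand, chr11:99024190-99024439 on the minus strand, chr13:51644982-51645231 on the plus strand and chr6:66534971-66535220 on the plus strand.
Cdk1: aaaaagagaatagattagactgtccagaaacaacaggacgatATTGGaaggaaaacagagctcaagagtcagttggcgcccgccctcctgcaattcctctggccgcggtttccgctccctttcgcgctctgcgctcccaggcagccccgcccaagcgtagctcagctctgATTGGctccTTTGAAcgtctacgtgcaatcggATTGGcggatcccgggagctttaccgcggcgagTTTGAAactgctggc
Cdc20: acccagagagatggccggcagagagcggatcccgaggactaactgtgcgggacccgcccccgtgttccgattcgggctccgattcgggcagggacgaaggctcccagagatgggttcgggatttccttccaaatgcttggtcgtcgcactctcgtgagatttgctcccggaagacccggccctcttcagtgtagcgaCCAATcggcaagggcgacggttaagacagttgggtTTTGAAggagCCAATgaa
Ube2c: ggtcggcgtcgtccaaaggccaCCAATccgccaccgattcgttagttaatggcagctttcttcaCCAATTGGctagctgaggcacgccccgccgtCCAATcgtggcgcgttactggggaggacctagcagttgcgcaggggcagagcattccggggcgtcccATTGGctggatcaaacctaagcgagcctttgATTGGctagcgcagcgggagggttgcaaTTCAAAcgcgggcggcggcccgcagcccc
Top2a: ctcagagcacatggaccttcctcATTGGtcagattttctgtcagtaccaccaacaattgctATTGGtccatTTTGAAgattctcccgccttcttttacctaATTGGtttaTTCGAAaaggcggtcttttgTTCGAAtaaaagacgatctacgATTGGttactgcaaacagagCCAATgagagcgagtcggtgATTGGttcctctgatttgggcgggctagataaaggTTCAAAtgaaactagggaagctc
Cks2: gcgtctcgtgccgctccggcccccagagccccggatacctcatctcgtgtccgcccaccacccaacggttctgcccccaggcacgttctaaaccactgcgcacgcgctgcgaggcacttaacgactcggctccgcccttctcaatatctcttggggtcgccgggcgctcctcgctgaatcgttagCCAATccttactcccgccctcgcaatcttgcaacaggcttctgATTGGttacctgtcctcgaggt
Mad2l1: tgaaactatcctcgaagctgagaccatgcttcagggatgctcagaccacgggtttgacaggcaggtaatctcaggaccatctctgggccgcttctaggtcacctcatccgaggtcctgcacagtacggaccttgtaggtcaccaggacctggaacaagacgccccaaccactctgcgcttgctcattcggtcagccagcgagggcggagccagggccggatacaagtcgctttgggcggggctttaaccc
Cdk1 holds 2 CHR matches, at 71 and 15 bases before the start, and 3 CCAAT boxes. Cdc20 holds 1 CHR match, 18 bases before the start, with a CCAAT box on either side of it at 53 and 8 bases. In Ube2c the CHR match lies on the opposite strand 29 bases before the start, downstream of 6 CCAAT boxes. Top2a has 4 CHR matches and 6 CCAAT boxes, the most CHR matches of any member. Cks2 has 2 CCAAT boxes, at 65 and 22 bases before the start, and no CHR match. The members shown were picked, and whether the elements go with fold was not tested. Other members broke the pattern of those shown. In day 2 replicate 3, Birc5 was 45.9-fold the higher control and held neither element. Cdca3 was 68.3-fold there and held no CHR match, while Smc2, at 7.00-fold, held both elements.

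**Figure D3:**
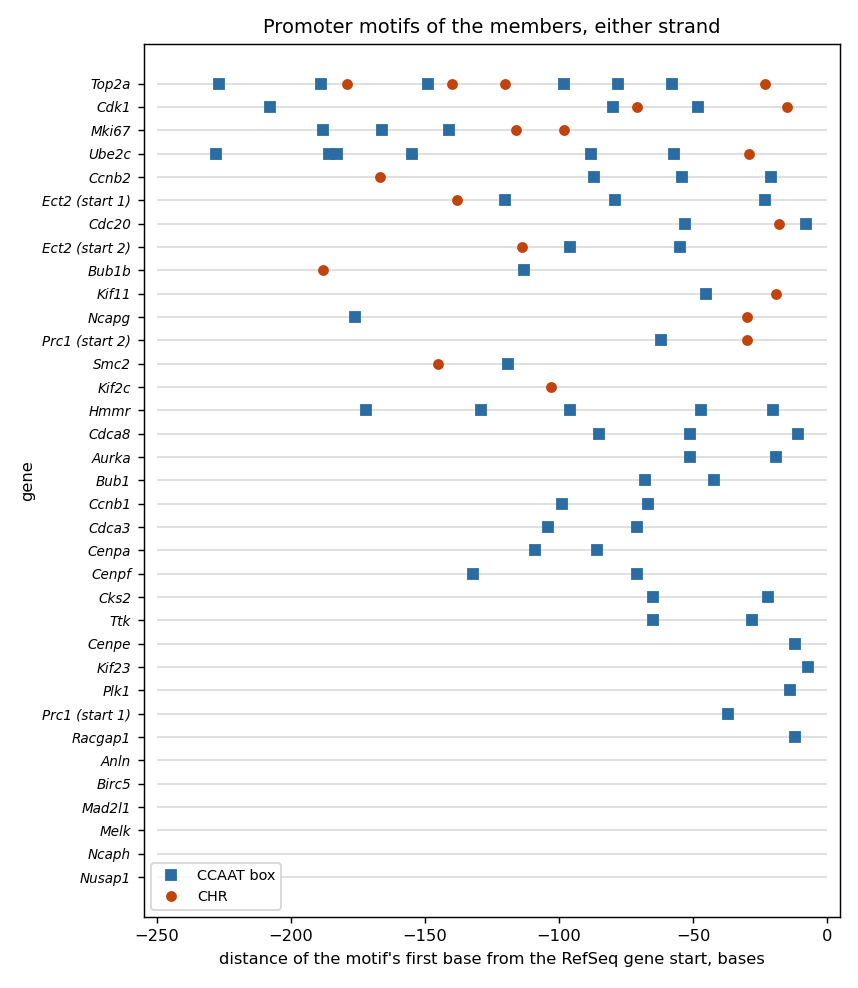
Positions of CCAAT boxes (squares) and CHR matches (circles) on either strand in the 250 bases before the RefSeq start of the 33 genes with a promoter, as distance in bases from the start on the horizontal axis. Ect2 and Prc1 have 2 listed starts each, drawn as separate rows, and 12 genes show both elements, 1 (Kif2c) a CHR match alone, 14 CCAAT boxes alone and 6 neither.

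The kinase and its direct partners comprised Cdk1, its cyclins Ccnb1, Ccnb2 and Ccna2, the small CDK-binding subunit Cks2 and the activating phosphatase Cdc25c. Cdk1 stood at 3.00 and 3.21 FPKM in the controls, at 1.10, 0.716, 136 and 188 FPKM in day 2 replicates 1 to 4, and at 3.90 and 2.62 FPKM at day 14 (ENSMUSG00000019942, GRCm38 chr10:69335146-69352938, minus strand). Day 2 replicates 3 and 4 were 42.5-fold and 58.7-fold the higher control, and replicates 1 and 2 were both below the lower control. The level of Ccnb1 was 0.866 and 1.20 FPKM in the controls, 0, 0, 36.6 and 42.8 FPKM across day 2 replicates 1 to 4 and 0.0477 and 0.386 FPKM in the day 14 libraries. Ccnb1, which encodes the main CDK1 partner at mitotic entry, was thus listed at 0 in day 2 replicates 1 and 2, where 3 fragments would have given 0.0790 and 0.0895 FPKM, less than either control. Ccnb2 stood at 1.39 and 0.951 FPKM in the controls, at 0.0880, 0.050, 54.9 and 45.6 FPKM in day 2 replicates 1 to 4, and at 1.47 and 1.41 FPKM at day 14, and for Ccna2, the cyclin of S and G2 phase, the controls read 1.13 and 0.941 FPKM, day 2 replicates 1 to 4 read 0.333, 0.519, 23.4 and 33.9 FPKM, and the day 14 libraries read 1.23 and 0.784 FPKM. Ccnb2 was 1 of 3 members that were higher in replicate 3 than in replicate 4. Cdc25c, which removes the inhibitory phosphates from CDK1, was the scarcest of these 6 genes in replicates 3 and 4, at 4.63 and 4.70 FPKM, and stood at 0.0340 and 0.102 FPKM in the controls.

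The level of Cks2 was 26.7 and 22.6 FPKM in the controls, 26.0, 36.1, 77.7 and 108 FPKM across day 2 replicates 1 to 4 and 42.8 and 43.8 FPKM in the day 14 libraries (ENSMUSG00000062248, GRCm38 chr13:51645232-51650660, plus strand). Cks2 was the most abundant member in every library except day 2 replicates 3 and 4. It was the only member to pass 20 FPKM in the controls, and the fold in replicates 3 and 4, 2.92 and 4.07, was the smallest of the 40. Unlike most members it was not below both controls in day 2 replicates 1 and 2, where it lay between the controls and above both, and both day 14 values lay above both controls. With a transcript of 692 bases it was the shortest member, and its estimated fragments ranged from 182 to 989 over the libraries.

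FOXM1 is the transcription factor that drives many G2 genes. Foxm1 stood at 0.223 and 0.500 FPKM in the controls, at 0.398, 0.106, 13.9 and 16 FPKM in day 2 replicates 1 to 4, and at 0.295 and 0.405 FPKM at day 14. The 2 controls differed by more than 2-fold, and replicate 1 lay between them and replicate 2 below them. Among the kinases that start mitosis and build the spindle were Plk1, Aurka, Melk and Pbk. For Plk1 the controls read 0.499 and 0.841 FPKM, day 2 replicates 1 to 4 read 0.154, 0.104, 31.9 and 39.0 FPKM, and the day 14 libraries read 0.464 and 0.656 FPKM. Aurka stood at 1.32 and 1.48 FPKM in the controls, at 0.680, 0.882, 37.0 and 36.1 FPKM in day 2 replicates 1 to 4, and at 0.641 and 1.18 FPKM at day 14. The centrosome kinase Aurka read alike in replicates 3 and 4 and lay below both controls in replicates 1 and 2. Pbk, a mitotic kinase, read 30.5 and 41.2 FPKM in replicates 3 and 4 against 0.626 and 0.556 FPKM in the controls, and Melk, another kinase of dividing cells, read 3.64 and 4.68 FPKM against 0.123 and 0.265 FPKM. Both were listed at 0 in day 2 replicate 2 and in day 14 replicate 1.

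The spindle assembly checkpoint, which holds anaphase back until every chromosome is attached, was represented by Mad2l1, Bub1b, Bub1 and Ttk. The level of Mad2l1 was 1.61 and 1.71 FPKM in the controls, 3.19, 2.16, 28.4 and 31.2 FPKM across day 2 replicates 1 to 4 and 2.84 and 2.18 FPKM in the day 14 libraries (ENSMUSG00000029910, GRCm38 chr6:66535390-66547220, plus strand). Mad2l1 was the only member above both controls in all 6 hepatectomy libraries, and Cks2 and Cenpa were so in 5 of them. Bub1b stood at 0.667 and 0.717 FPKM in the controls, at 0.0675, 0.698, 8.27 and 9.45 FPKM in day 2 replicates 1 to 4, and at 0.179 and 0.187 FPKM at day 14. Bub1b, which encodes BUBR1, was between the controls in day 2 replicate 2 and below them in replicate 1 and at day 14. The kinases Bub1 and Ttk were among the scarcest members, Bub1 with the lowest mean of all, and reached 3.19 and 4.23 FPKM and 5.14 and 7.33 FPKM in replicates 3 and 4 and were listed at 0 in replicates 1 and 2. In the controls Bub1 rested on 3.97 and 7.81 estimated fragments, so its control level is known only roughly.

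Genes of mitotic exit were Ube2c, Cdc20 and Cdca3. For Ube2c the controls read 1.31 and 1.52 FPKM, day 2 replicates 1 to 4 read 1.26, 0.516, 168 and 247 FPKM, and the day 14 libraries read 2.66 and 4.04 FPKM (ENSMUSG00000001403, GRCm38 chr2:164769898-164778822, plus strand). Ube2c, the ubiquitin-conjugating enzyme of the anaphase promoting complex, was the most abundant member in replicates 3 and 4 and had the largest fold over control. Part of its exons, 22.8% of the bases, lies opposite an exon of Tnnc2, which was listed at no more than 0.366 FPKM in any library. Cdc20 stood at 1.86 and 2.47 FPKM in the controls, at 0.722, 0.0840, 79.7 and 108 FPKM in day 2 replicates 1 to 4, and at 1.35 and 1.00 FPKM at day 14. Cdc20, the activator of that complex, was 1 of only 2 members to lie at least 1 log2 unit below the lower control in a library, day 2 replicate 2. The level of Cdca3 was 1.74 and 1.89 FPKM in the controls, 0.653, 0.559, 129 and 103 FPKM across day 2 replicates 1 to 4 and 3.79 and 4.05 FPKM in the day 14 libraries. Cdca3, a trigger of mitotic entry that is itself degraded on exit, was 68.3-fold and 54.6-fold the higher control, and was higher in replicate 3 than in replicate 4.

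The chromosomal passenger complex, which corrects faulty attachments and guides cleavage, includes survivin (Birc5), borealin (Cdca8) and the kinase Aurkb. Birc5 stood at 1.51 and 2.05 FPKM in the controls, at 0.280, 0.756, 93.9 and 122 FPKM in day 2 replicates 1 to 4, and at 1.5 and 3.31 FPKM at day 14. For Cdca8 the controls read 0.878 and 1.36 FPKM, day 2 replicates 1 to 4 read 0.412, 0.0465, 24.6 and 36.6 FPKM, and the day 14 libraries read 0.497 and 0.715 FPKM. The level of Aurkb was 0.866 and 0.404 FPKM in the controls, 0.491, 0.0428, 20.2 and 32.2 FPKM across day 2 replicates 1 to 4 and 0.629 and 0.856 FPKM in the day 14 libraries. All 3 were high in replicates 3 and 4, at 18.1-fold to 59.6-fold of the higher control. Aurkb in replicate 1 lay between 2 controls that themselves differed, and Birc5 lay above both controls in day 14 replicate 2.

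Cenpa, the histone that marks centromeres, was the second most abundant member in the controls. Cenpa stood at 4.5 and 4.21 FPKM in the controls, at 4.82, 3.90, 62.7 and 78.1 FPKM in day 2 replicates 1 to 4, and at 7.88 and 8.25 FPKM at day 14 (ENSMUSG00000029177, GRCm38 chr5:30666777-30674830, plus strand). It lay above both controls in day 2 replicate 1 and in both day 14 libraries, and below both in replicate 2, by less than 1 FPKM. Cenpe and Cenpf, genes of kinetochore proteins of mitosis, were lower than Cenpa in all 8 libraries. For Cenpe the controls read 0.453 and 0.123 FPKM, day 2 replicates 1 to 4 read 0.0135, 0, 4.43 and 6.54 FPKM, and the day 14 libraries read 0.0968 and 0.0473 FPKM. The level of Cenpf was 0.527 and 0.165 FPKM in the controls, 0, 0, 3.98 and 5.88 FPKM across day 2 replicates 1 to 4 and 0.0303 and 0.0840 FPKM in the day 14 libraries. Both were at or near 0 in day 2 replicates 1 and 2, and their folds over the higher control in replicates 3 and 4 were 7.56 and 11.2 for Cenpf and 9.79 and 14.4 for Cenpe.

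Spindle motors and microtubule binders included the bipolar kinesin Kif11, the depolymerising kinesin Kif2c, Tpx2, Nusap1 and Hmmr. Tpx2 stood at 0.811 and 1.06 FPKM in the controls, at 0.120, 0.0783, 18.5 and 21.0 FPKM in day 2 replicates 1 to 4, and at 0.307 and 0.260 FPKM at day 14. For Nusap1 the controls read 0.477 and 0.453 FPKM, day 2 replicates 1 to 4 read 0, 0.0699, 13.9 and 16.4 FPKM, and the day 14 libraries read 0.351 and 0.169 FPKM. The 5 genes reached 6.02 to 18.5 FPKM in replicate 3 and 8.99 to 21.0 FPKM in replicate 4. In replicates 1 and 2 none exceeded 0.120 FPKM, while all 5 lay between 0.222 and 1.06 FPKM in the controls. Hmmr, a spindle and hyaluronan binding protein, was listed at 0 in both of these libraries.

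Cytokinesis, the physical cut between daughter cells, is the step that hepatocytes can skip. The central spindle genes Prc1, Kif20a, Kif23 and Racgap1 and the furrow genes Ect2 and Anln were all high in day 2 replicates 3 and 4 with the others. The level of Prc1 was 0.722 and 1.85 FPKM in the controls, 0.106, 0.0599, 35.5 and 47.9 FPKM across day 2 replicates 1 to 4 and 0.235 and 0.588 FPKM in the day 14 libraries. Racgap1 stood at 0.612 and 1.02 FPKM in the controls, at 0.0427, 0.0927, 21.2 and 22.9 FPKM in day 2 replicates 1 to 4, and at 0.414 and 0.312 FPKM at day 14. Kif20a, whose exons overlap those of Cdc23 on the opposite strand over 29.3% of their bases, reached 20.6 and 22.2 FPKM against 0.621 and 0.745 FPKM in the controls. For Anln the controls read 0.336 and 0.164 FPKM, day 2 replicates 1 to 4 read 0.0766, 0.430, 4.87 and 6.43 FPKM, and the day 14 libraries read 0.297 and 0.135 FPKM. Anln was the only one of these 6 above both controls in replicate 2, and Ect2, which encodes the activator of RhoA at the furrow, was above both in day 14 replicate 2, at 1.04 FPKM. Kif23 was above both controls there too, at 0.239 FPKM, and was listed at 0 in day 14 replicate 1.

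Genes of chromosome structure were Top2a, the topoisomerase that untangles sister chromatids, Mki67, the proliferation marker that coats mitotic chromosomes, and the condensin genes Smc2, Ncapg and Ncaph. Top2a stood at 0.604 and 0.982 FPKM in the controls, at 0.223, 0.0128, 29.3 and 58.2 FPKM in day 2 replicates 1 to 4, and at 0.716 and 0.617 FPKM at day 14 (ENSMUSG00000020914, GRCm38 chr11:98992943-99024189, minus strand). Top2a gave the largest fold of replicate 4 over replicate 3 among the 40, 1.99. The level of Mki67 was 0.346 and 0.511 FPKM in the controls, 0.0155, 0.0483, 10.5 and 14.9 FPKM across day 2 replicates 1 to 4 and 0.244 and 0.346 FPKM in the day 14 libraries (ENSMUSG00000031004, GRCm38 chr7:135689784-135716361, minus strand). In estimated fragments this was 58.2 and 86.6 in the controls, 2.56 and 7.04 in day 2 replicates 1 and 2, and 1831 and 2874 in replicates 3 and 4. Smc2, shared by both condensin complexes, was close to its control levels of 0.629 and 0.662 FPKM in day 2 replicate 1, at 0.606 FPKM, and in replicates 3 and 4 it was 7.00-fold and 11-fold the higher control, the smallest folds after those of Cks2. Ncaph and Ncapg were above both controls in day 14 replicate 1, at 0.987 and 1.00 FPKM.

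Replicates 3 and 4 differed from each other as well. Of the 40 genes 37 were higher in replicate 4, with Ccnb2, Aurka and Cdca3 the exceptions, and the fold of replicate 4 over replicate 3 ran from 0.80 to 1.99 with a median of 1.32. Over the 12194 tested genes above 0 in replicate 3 the median fold was 0.973 and 47.0% were higher in replicate 4. What treatment either library received is not given, so a difference between mice and one between treatments cannot be told apart.

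**Figure D4:**
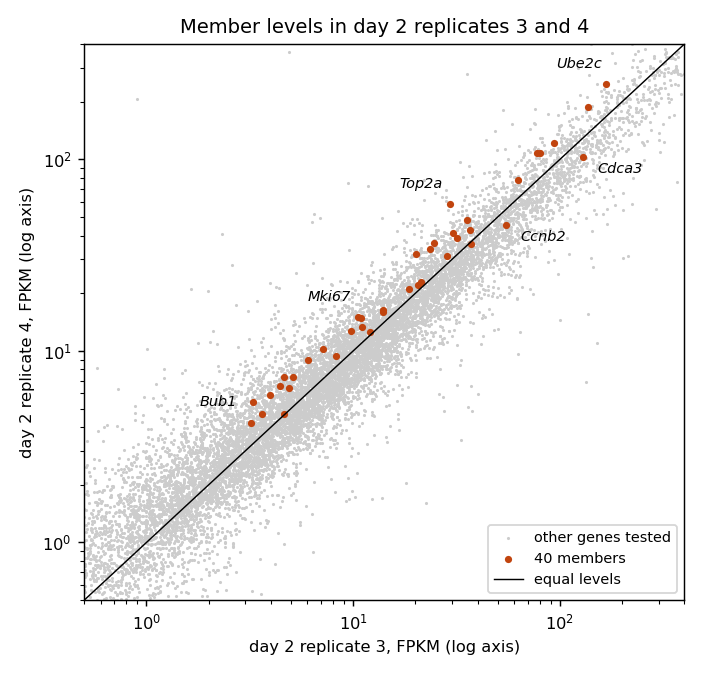
Level in day 2 replicate 4 (vertical, FPKM, log axis) against replicate 3 (horizontal, FPKM, log axis) for the 40 genes (large points) and all other tested genes (small points), with the line of equal levels. Of the large points 37 lie above the line, at a median fold of 1.32, with Top2a farthest above and Cdca3 farthest below.

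In day 2 replicates 1 and 2 most members lay below the controls at very low levels. Replicate 1 was below both controls for 35 of 40 genes, against 43.7% of all genes tested, and replicate 2 for 36 of 40, against 45.5%. The exceptions were Mad2l1 and Cenpa (above both controls) and Cks2, Foxm1 and Aurkb (between them) in replicate 1, and Cks2, Mad2l1 and Anln (above) and Bub1b (between) in replicate 2. Because 29 of the 40 passed the filter only through replicates 3 and 4, their low levels elsewhere were partly set by the filter. Of all genes tested 87.9% and 85.9% reached 1 FPKM in replicates 1 and 2. Of the 11 members that passed without replicates 3 and 4, all but Mad2l1, Cenpa and Cks2 lay below both controls in replicate 1. In replicate 2 all of these but Cks2 and Mad2l1 did. At least 1 log2 unit below the lower control were none in replicate 1, against 10.2% of all genes, and 2 in replicate 2 (Cdk1 and Cdc20), against 13.4%. With a pseudocount of 1 a gene below 1 FPKM cannot fall by 1 unit, so the count was repeated with a pseudocount of 0.1. It was then 24 of 40 in replicate 1, against 15.1% of all genes, and 29 of 40 in replicate 2, against 19.5%. Members listed at 0 numbered 8 and 10 in these libraries, 0 in the controls and in replicates 3 and 4, and 3 and 0 at day 14. In replicates 3 and 4, no member was at least 1 unit below the lower control, against 6.82% and 9.57% of all genes, or below both controls, against 42.4% and 44.6%.

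Differences of the hepatectomy libraries from control also ran with the length and GC content of transcripts, and the 40 genes had a median transcript of 3474 bases and 46.2% GC against 3103 bases and 49.7% for all genes tested. With that trend removed from each library the genes below both controls numbered 22 of 40 in replicate 1, against 41.3% of all genes, and 25 of 40 in replicate 2, against 43.7%. With the trend removed and a pseudocount of 0.1, genes at least 1 unit below the lower control numbered 21 of 40 in each of these libraries, against 13% and 17.5%, and genes below both controls 35 in each. In replicates 3 and 4 all 40 stayed at least 1 unit above the higher control under each of these settings. The lower levels in replicates 1 and 2 rested on few fragments, with a median member at 5.87 and 3.60 estimated fragments against 38.6 and 42.7 in the controls.

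The comparison of day 2 with control asked how the remnant liver early after surgery differed from intact liver. All 40 genes had a positive log2 change, with a median of 1.51 against 0.05 over all genes tested, and none was called. Of the 40, 29 passed the filter on low values only through day 2 replicates 3 and 4, so the filter favoured a rise for these. The 11 that passed without them also had positive changes. The fit was limma's moderated test on log2(FPKM + 1) over all 12340 genes, with Benjamini-Hochberg adjusted p under 0.05 as the threshold. It called 21.2% of all genes, 9.72% as higher and 11.5% as lower. None of the 40 reached an unadjusted p of 0.05 either, and limma without the variance trend also called none. Adjusted p (limma) ran from 0.165 for Mad2l1, with a log2 change of 1.99 ± 0.95 (SE), to 0.492 for Cdc20, with 1.85 ± 1.86. The largest change was that of Ube2c, 3.01 ± 2.07, and that of Cks2 was 1.08 ± 0.52 with an adjusted p of 0.169 (limma). For Cdk1 the change was 2.09 ± 1.95, for Mki67 1.39 ± 1.14, for Foxm1 1.71 ± 1.13, for Ccnb1 1.65 ± 1.63 and for Top2a 1.95 ± 1.61. These standard errors take in day 2 libraries on both sides of the controls. With any 1 library left out none of the members was called either, and the lowest adjusted p (limma) was 0.0595, without day 2 replicate 2. Without day 2 replicate 3 or 4 only 18 of the 40 passed the filter, and the median change of these was 0.91 and 0.81, while without replicate 1 or 2 the median over 40 was 2.2 in both fits.

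At day 14 the 40 genes were below their levels in day 2 replicates 3 and 4 and on both sides of the controls. Most were far below those levels, while Cks2 stood at 42.8 and 43.8 FPKM against 77.7 and 108 FPKM. The median member stood at 0.329 and 0.422 FPKM against 0.623 and 0.731 FPKM in the controls. Replicate 1 was below both controls for 24 of 40 genes, against 47.1% of all genes tested, and replicate 2 for 21 of 40, against 42.5%. None lay at least 1 log2 unit below the lower control with a pseudocount of 1, against 11.2% and 4.34% of all genes, and with a pseudocount of 0.1 12 and 4 of 40 did, against 16.5% and 8.07%. Genes above both controls numbered 10 and 11 of 40, against 43.2% and 46.3% of all genes, and 7 of them were above in both libraries, namely Ccnb2, Cks2, Mad2l1, Ube2c, Cdca3, Cenpa and Ncaph. The share of all genes that lay above both controls in both libraries was not taken, so no common rise is read from these 7. In the fit with all libraries none of the 40 was called for day 14 against control (limma), where 9.79% of all genes were, and none was called at an unadjusted p of 0.05. Of the 40 changes 12 were positive, with a median of -0.10 against 0.00 for all genes, and with the trend with length and GC removed 25 were positive, with a median of 0.11, so no common direction held. The spread in that fit takes in the day 2 group. With only control and day 14 in the fit 3 genes were called higher (limma), against 11.5% of all genes. Cdca3 was higher by 0.81 ± 0.17 (SE) with an adjusted p of 0.0370, Cenpa by 0.76 ± 0.17 with an adjusted p of 0.0427, and Cks2 by 0.79 ± 0.19 with an adjusted p of 0.0460, all on the log2(FPKM + 1) scale. Both day 14 values lay above both controls for each of the 3, and in the fit with all libraries their adjusted p-values (limma) were 0.849, 0.753 and 0.421.

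Between day 14 and day 2 all 40 changes were negative, with a median of -1.63 against -0.03 for all genes tested, and none was called, where 16.1% of all genes were (limma). For 29 of the 40, which passed the filter only through day 2 replicates 3 and 4, the filter favoured a fall. The 11 that passed without these libraries had negative changes too. The lowest adjusted p was 0.239, for Bub1b with a change of -1.62 ± 0.90 (SE), and no unadjusted p was under 0.05. The change was -2.18 ± 2.07 for Ube2c, -2.05 ± 1.95 for Cdk1 and -1.53 ± 1.14 for Mki67. Cks2 had the smallest change, -0.29 ± 0.52 with an adjusted p of 0.719 (limma). For every member both day 14 levels lay below those of day 2 replicates 3 and 4. Day 14 and day 2 were each set against the same controls, so these comparisons share libraries.

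Other genes of the same machinery were read from lists that do not include the 40. Of 69 further G2/M and mitosis genes 65 were tested, and 57 and 61 of the 65 were at least 1 unit above the higher control in day 2 replicates 3 and 4, against 9.76% and 12.2% of all genes, and 2 and 1 were in replicates 1 and 2 and 2 and 3 at day 14. Of the 65, 44 passed the filter on low values only through day 2 replicates 3 and 4 and so had to be high there, which leaves 21 that passed without them. The median over the 65 lay 2.39 and 2.78 units above the control mean in replicates 3 and 4 and at -0.08 and -0.13 units in replicates 1 and 2, with the same selection. The 2 of highest mean FPKM over the 8 libraries, Hjurp and Pttg1, differed from most. Pttg1 stood at 38.1 and 33.3 FPKM in the controls, at 34.8, 23.9, 32.7 and 35.5 FPKM in day 2 replicates 1 to 4, and at 59.3 and 79.9 FPKM at day 14. For Hjurp the controls read 31.2 and 33.9 FPKM, day 2 replicates 1 to 4 read 39.5, 37.0, 48.1 and 86.0 FPKM, and the day 14 libraries read 55.7 and 33.8 FPKM. Pttg1, which encodes securin, the inhibitor of separase, was thus near control level in all day 2 libraries and highest at day 14. Hjurp, which encodes the chaperone of CENP-A, lay above both controls in all 4 day 2 libraries. Its fold over the higher control in replicates 3 and 4 was smaller than that of any of the 40. Of the 65, 2 were called higher at day 2 (limma), Cks1b and Pkmyt1, against 9.72% of all genes. The level of Cks1b was 6.15 and 5.62 FPKM in the controls, 23.9, 15.8, 38.8 and 64.4 FPKM across day 2 replicates 1 to 4 and 5.36 and 11.8 FPKM in the day 14 libraries, a log2 change of 2.23 ± 0.52 with an adjusted p of 0.0228 (limma). Pkmyt1 stood at 0.415 and 0.202 FPKM in the controls, at 5.84, 1.37, 17.2 and 22.3 FPKM in day 2 replicates 1 to 4, and at 2.06 and 0.971 FPKM at day 14, a change of 2.80 ± 0.82 with an adjusted p of 0.0439 (limma). The call of Cks1b was lost with no filter on low values, at an adjusted p of 0.0533 (limma), and that of Pkmyt1 with no filter, with only the 2 groups and with the trend with length and GC removed, at 0.101, 0.0699 and 0.0797. Unlike most members, these genes of the CKS1 subunit and of the kinase that holds CDK1 inactive were above both controls in all 4 day 2 libraries. Mybl2, which encodes B-MYB, a partner of FOXM1 at these promoters, stayed between 0.28 and 1.63 FPKM in all libraries.

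Subunits of the anaphase promoting complex lay nearer to control than its mitotic partners Cdc20 and Ube2c. Of 16 tested subunits and partners, 4 and 5 were at least 1 unit above the higher control in day 2 replicates 3 and 4, against 9.76% and 12.2% of all genes, and the median difference from control was 0.35, 0.55, 0.56 and 0.58 in replicates 1 to 4. Anapc4, Anapc5, Anapc7, Anapc15 and Cdc16 were called higher at day 2, by 1.44, 1.10, 0.70, 1.35 and 0.70 on the log2 scale, 5 of 16 against 9.72% of all genes. For Ube2s the controls read 16.5 and 13.9 FPKM, day 2 replicates 1 to 4 read 25.5, 28.6, 126 and 143 FPKM, and the day 14 libraries read 12 and 28.1 FPKM. Ube2s, which extends ubiquitin chains on the complex, was highest in replicates 3 and 4 but also above both controls in replicates 1 and 2. Anapc13 stood at 65.4 and 65.3 FPKM in the controls, at 64.9, 89.4, 83.4 and 119 FPKM in day 2 replicates 1 to 4, and at 189 and 179 FPKM at day 14, the most abundant subunit and the only one called higher at day 14 than in control, by 1.48 ± 0.31, where 5.21% of all genes were. Against day 2, Anapc13 was called higher at day 14 by 1.07, and Anapc7 and Cdc26 were called lower, with changes of -0.83 and -1.23, where 9.09% of all genes were called higher and 7.03% lower.

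Cohesin holds sister chromatids together until anaphase. Of its 11 tested genes Stag2 and Nipbl were called lower at day 2 than in control, with changes of -2.57 ± 0.30 and -1.22 ± 0.19, and Nipbl and Wapl lower at day 14, with -0.87 ± 0.21 and -1.48 ± 0.25 (limma), where 11.5% and 4.58% of all genes were called lower. The level of Stag2 was 20.9 and 33.6 FPKM in the controls, 2.85, 4.07, 3.79 and 3.92 FPKM across day 2 replicates 1 to 4 and 8.93 and 17.1 FPKM in the day 14 libraries. Stag2 lay below both controls in each of the 4 day 2 libraries. Rad21 and Smc1a, of highest mean FPKM over the 8 libraries in this list, were not called, at 28.6 and 31.9 FPKM and 20.8 and 19.3 FPKM in replicates 3 and 4 against 15.8 and 15.8 FPKM and 16.3 and 12.7 FPKM in the controls. Against day 2, Stag2 was called higher at day 14 by 1.53, Pttg1 higher by 1.11, and Cks1b and Wapl lower, with changes of -1.84 and -0.92. Of 13 DREAM and MuvB genes, which keep G2 genes silent in resting cells, 1, Rbl2 (p130), was called lower at day 2, at -1.40 ± 0.21, a share near the 11.5% of all genes, and Rbbp4 and Tfdp1, of highest mean FPKM over the 8 libraries, were not called. For Rbl2 the controls read 10.1 and 9.63 FPKM, day 2 replicates 1 to 4 read 2.74, 4.06, 2.80 and 2.92 FPKM, and the day 14 libraries read 5.98 and 4.75 FPKM. None of 5 tested E2F genes was called in any comparison. Of all genes 21.2%, 9.79% and 16.1% were called at day 2 and day 14 against control and at day 14 against day 2. In day 2 replicates 3 and 4, 2 and 3 of the 5 were at least 1 unit above the higher control. Of all genes 9.76% and 12.2% were. In replicates 1 and 2 none of the 5 was, against 11.4% and 15.6%. Of the 5, 2 passed the filter on low values only through replicates 3 and 4. E2f1 read 6.90 and 9.53 FPKM in replicates 3 and 4 against 1.08 and 1.16 FPKM in the controls, and E2f8, an atypical E2F linked to hepatocyte polyploidy, 0.0855 and 0.335 FPKM in replicates 1 and 2 and 3.67 and 6.10 FPKM in replicates 3 and 4, against 2.45 and 1.76 FPKM. These calls rest on few libraries. Of the 10 calls of listed genes at day 2 against control 1, that of Stag2, held without control replicate 1 and none without control replicate 2, with adjusted p-values (limma) of 0.0351 to 0.253 and of 0.0554 to 0.230. With 1 of the other 6 libraries left out 7 to 10 held. Of 3 such calls at day 14 against control none held without control replicate 1, control replicate 2 or day 14 replicate 1, and 1 without day 14 replicate 2. Of 7 at day 14 against day 2 none held without day 14 replicate 1, and 1 held without day 14 replicate 2, without either control replicate or with only these 2 groups in the fit. Anapc15 and Rbl2 share 38.4% and 21.0% of their exon bases with genes on the opposite strand, and no source states that fragments were counted by strand, so their levels are uncertain.

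**Figure D5:**
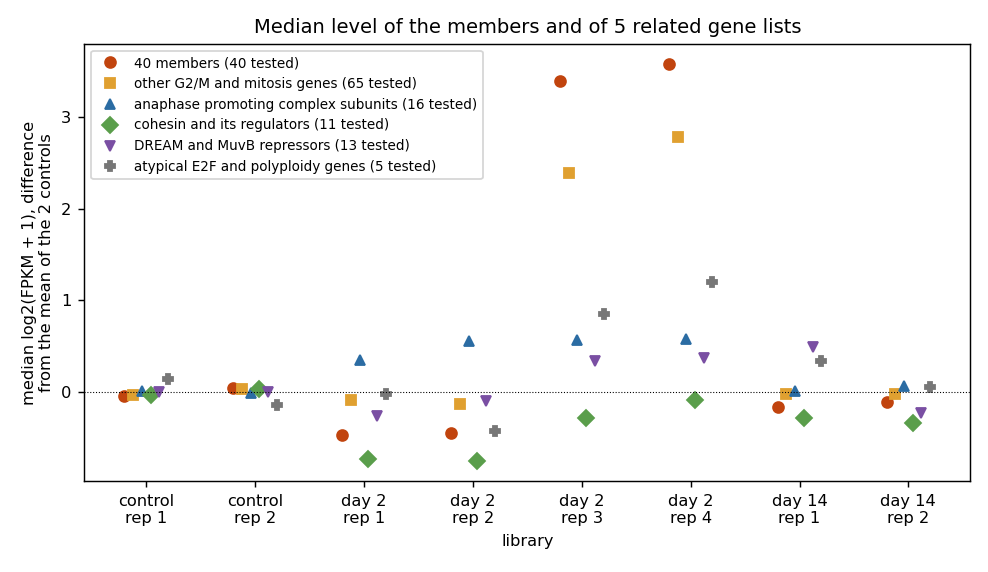
Median difference of log2(FPKM + 1) from the mean of the 2 controls (vertical) in each library (horizontal) for the 40 genes and 5 related lists. Only through day 2 replicates 3 and 4 did 29 of the 40 genes pass the filter on low values. The same holds for 44 of the 65 other G2/M and mitosis genes. The 40 genes and the other G2/M and mitosis genes are high in day 2 replicates 3 and 4 only, at 3.40 and 3.58 and at 2.39 and 2.78, while the anaphase promoting complex subunits lie at 0.35 to 0.58 in all 4 day 2 libraries. The atypical E2F and polyploidy genes lie at -0.02, -0.42, 0.85 and 1.21 in day 2 replicates 1 to 4.

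Markers of other cell types did not all follow the same libraries. Of all genes tested 46.8%, 46.4%, 47% and 45.8% lay above the higher control in day 2 replicates 1 to 4. The marker counts below are to be read against these shares. The stellate cell and fibroblast list was above the higher control for 6 of 7 genes in day 2 replicates 3 and 4, for 5 of 7 in replicate 1 and 1 of 7 in replicate 2, with summed levels of 98.9 and 172 FPKM in replicates 3 and 4, 118 and 63.6 FPKM in replicates 1 and 2, and 69.9 FPKM in each control. Monocyte and neutrophil markers summed to 141, 317, 87.9 and 32.5 FPKM in day 2 replicates 1 to 4, against 4.02 and 8.31 FPKM in the controls. Of these 8 genes 6, 6, 4 and 5 lay above the higher control in day 2 replicates 1 to 4. Mpo was listed at 0 in both controls and in replicates 3 and 4. Kupffer cell markers summed to 74.4, 112, 116 and 144 FPKM, against 95.7 and 78.4 FPKM. Only 1, 1, 2 and 3 of these 6 genes lay above the higher control in day 2 replicates 1 to 4. Erythroid precursor markers summed to 468, 1526, 342 and 670 FPKM, against 401 and 329 FPKM. Of the 8 listed genes 3, 3, 4 and 5 lay above the higher control in day 2 replicates 1 to 4. Gata1 was listed at 0 in all libraries and Klf1 at 0.344 and 0.311 FPKM in replicates 3 and 4. T and B lymphocyte markers were at or under 0.748 FPKM in sum in all day 2 libraries, against 2.24 and 2.65 FPKM. Sinusoidal endothelial markers summed to 45.8 to 78.6 FPKM and cholangiocyte markers to 46.8 to 126 FPKM at day 2. Which cells carried the 40 genes was not tested.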

How the data were processed

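Liver RNA of 8 libraries was sequenced on an Illumina NovaSeq after TruSeq RNA library preparation, per the labels' protocols. The authors deposited 1 table of FPKM values for each gene, with 1 column for each library. HISAT2 2.10, Cufflinks 2.2.1, HTSeq and DESeq2 appear in the submitters' processing notes without a role, as do 2 builds, GRCm38 and mm9. The series' design text names BWA and ANOVA, and TopHat with Cufflinks, instead. The sources used here do not say which of these produced the FPKM values or with which gene models. Of 47719 genes 25829 were at 0 in all libraries.

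Values were taken as log2(FPKM + 1), and a gene was tested if 2 or more libraries reached 1 FPKM, which 12340 genes did. One limma 3.58.1 model (R 4.3.3) with a mean for each of 3 groups and a mean-variance trend took in all 8 libraries, and the calling threshold was 0.05 on p-values adjusted by Benjamini and Hochberg's method. The fitting step was tested on simulated data with known changes. Control (2 libraries), day 2 (4) and day 14 (2) were grouped by their labels. Fragments behind a value were estimated from the steps between low FPKM values of 8388 genes with 1 transcript, which fell within 0.1 of whole fragments for 47.2% to 83.1% of low values, and such estimates cover counting error only. Coordinates, lengths and exon overlaps came from GENCODE M21 on GRCm38, and promoters from RefSeq.

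The 40 members, the 5 related lists and the 8 marker lists were chosen with earlier results of these data known, so no count over them is independent support. All 40 members could be named, with values in every library for the 2 of highest mean FPKM in each of 10 roles, for Mki67, for called members, for members whose order across libraries differs from most and for the members of highest and lowest mean. Of each other list the 2 most abundant and all called genes are named. Of all listed genes 4 were found under an older symbol by their identifier and 1, Ahsp, was not used here. Each fit was recomputed with 0.1 as the pseudocount, without the filter on low values and with one at 5 FPKM, where 32 members were tested. Fits were also made after scaling by median ratios or by quantiles, and with each library left out. Others took the 2 compared groups alone, or limma without the trend. The trend with length and GC content was removed by splines of 4 degrees of freedom in each library. Counts of genes at least 1 unit above or below the controls were recomputed with 0.1 as the pseudocount and under both scalings. They were also taken with the trend with length and GC removed and against each control alone, but not under other filters. The counts of genes below both controls under other settings, and a pseudocount of 0.1 together with removal of the trend, were added after the data had been seen. Plots were made in Python 3.11.15 with matplotlib 3.10.9.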

Additional observations from a re-analysis of the deposited data

Results flagged for a closer look

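Rbl2 (p130), a pocket protein of the DREAM complex, stood out in the day 2 group because its highest library, day 2 replicate 2, lay apart from the other 3, at 2.34 on the log2(FPKM + 1) scale. Its levels there were 2.74, 4.06, 2.80 and 2.92 FPKM in replicates 1 to 4, against 10.1 and 9.63 FPKM in the controls. The threshold was Dixon's 95% critical value, which by its construction chance passes in about 1 of 20 groups.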

How the results depend on the processing

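In all settings and with each library left out, none of the 40 genes that was tested was called at day 2 against control or at day 14 against day 2, and at day 14 against control 3 were called, with only these 2 groups in the fit. All 40 stayed at least 1 log2 unit above the higher control in day 2 replicates 3 and 4 with a pseudocount of 0.1, under both scalings, with the trend with length and GC removed, with that trend removed and the pseudocount of 0.1 together, and against either control alone. With a pseudocount of 0.1, 24, 29, 12 and 4 genes lay at least 1 unit below the lower control in day 2 replicates 1 and 2 and day 14 replicates 1 and 2, against 15.1%, 19.5%, 16.5% and 8.07% of all genes, and 1 and 2 lay as far above the higher control in the day 14 libraries. With the trend with length and GC removed as well these counts were 21, 21, 6 and 4 below, against 13%, 17.5%, 14.9% and 6.72% of all genes, and 1, 1, 3 and 2 above. With the trend removed alone, 1 and 1 lay below in day 2 replicates 1 and 2, against 9.3% and 12.2% of all genes, and 1 lay above in replicate 1. Below both controls were then 22, 13 and 10 in day 2 replicate 1 and the 2 day 14 libraries, against 41.3%, 46% and 39.9% of all genes. Against control replicate 1 alone, 1 gene lay below in day 2 replicate 1 and 1 above in day 14 replicate 2, and against control replicate 2 alone 5, 5 and 2 lay below in day 2 replicates 1 and 2 and day 14 replicate 1. For counts above the higher control in these settings, and for counts against 1 control alone, the share over all genes was not taken. Over all genes, calls at day 2 against control numbered 1739 with the trend removed, and 92 (without control replicate 2) to 2971 with 1 library left out. At day 14 against control they numbered 691 with no filter, 2664 with only the 2 groups, 508 with the trend removed, and 0 (limma, without day 14 replicate 1, where 2099 had an unadjusted p under 0.05) to 2097. At day 14 against day 2 they numbered 982 with only the 2 groups and 17 (without day 14 replicate 1) to 2472. The change of Cks2 between day 14 and day 2 ran from -0.63 to 0.047, the latter without day 2 replicate 4. Of 688 values of named log2 changes under alternatives 592 kept their direction and side of the threshold, 92 lost a call, 3 gained one and 1 reversed. The cause of these differences was not tested. No paired analysis was possible because no pair of groups shares more than 1 number in the titles of its libraries, the number 2 (day 2 replicate 1, day 14 replicate 1 and control replicate 2). Without day 2 replicate 3 or 4, 22 of the 40 genes were not tested.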
